A study of Mus musculus with 12 samples.

Results

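Complement components and receptors were followed in tumour-associated macrophages (TAMs) as 8 genes listed by name: C1qa, C1qb and C1qc, which encode the chains of C1q; C3, Cfb and Cfp, which form and stabilise the C3 convertase; and C3ar1 and C5ar1, the receptors of the anaphylatoxins C3a and C5a. All 8 were found among the 24781 rows of the table, and all 8 were among the 9580 genes tested. TAMs were CD45+CD11b+F4/80high cells of MC38 tumours, a mouse colon adenocarcinoma line grown in the skin of the flank, taken on day 7 after inoculation into WT mice that received either picrotoxin, which blocks the ionotropic GABA type A receptor, or its solvent DMSO, by intraperitoneal injection from the day before inoculation and every other day thereafter. Each of the 12 libraries, 6 per group, was made from 100 cells. All groups shared the tumour, the wild-type genotype (C57BL/6J or C57BL/6N in the study, not given per library) and the injections, and age was stated for the study's mice only as a range. One passage of the study assigns every library a separate mouse and another counts fewer mice than libraries, so p-values here measure the spread between libraries, part of which may be technical.

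Complement is a cascade of plasma and locally made proteins that tags targets and recruits leukocytes. C1q is assembled from equal numbers of A, B and C chains, recognises antibody and dying cells, and starts the classical pathway. C3 is the protein on which all routes converge, factor B (Cfb) supplies the protease of the alternative pathway and properdin (Cfp) stabilises it. Cleavage of C3 and C5 releases C3a and C5a, which signal to myeloid cells through the G protein-coupled receptors C3ar1 and C5ar1. Macrophages are a main source of C1q, whereas most circulating C3 comes from the liver.

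With picrotoxin, transcripts of both anaphylatoxin receptors and of C3 were higher than with DMSO at an unadjusted p under 0.05, whereas the C1q chains, Cfb and Cfp did not pass that threshold. The difference was most regular for C3ar1, whose 6 picrotoxin libraries all lay above the highest DMSO library. No member passed after adjustment. In edgeR, 0 of 8 members had a Benjamini-Hochberg adjusted p under 0.05, against 0.0522% of all genes tested. At an unadjusted p under 0.05, 3 of 8 members were called, against 7.72% of all genes, and all 3 were higher with picrotoxin, a direction that held 3.67% of all genes tested, while 0 members and 4.05% of all genes were called lower. By the rule of the study, an unadjusted p under 0.05 in DESeq2, 1 of 8 members was called, against 3.82% of all genes. The log2 fold change was above 0 in 7 members and below 0 in 1, with a median of 0.22 against -0.01 over all genes tested.

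**Figure D1:**
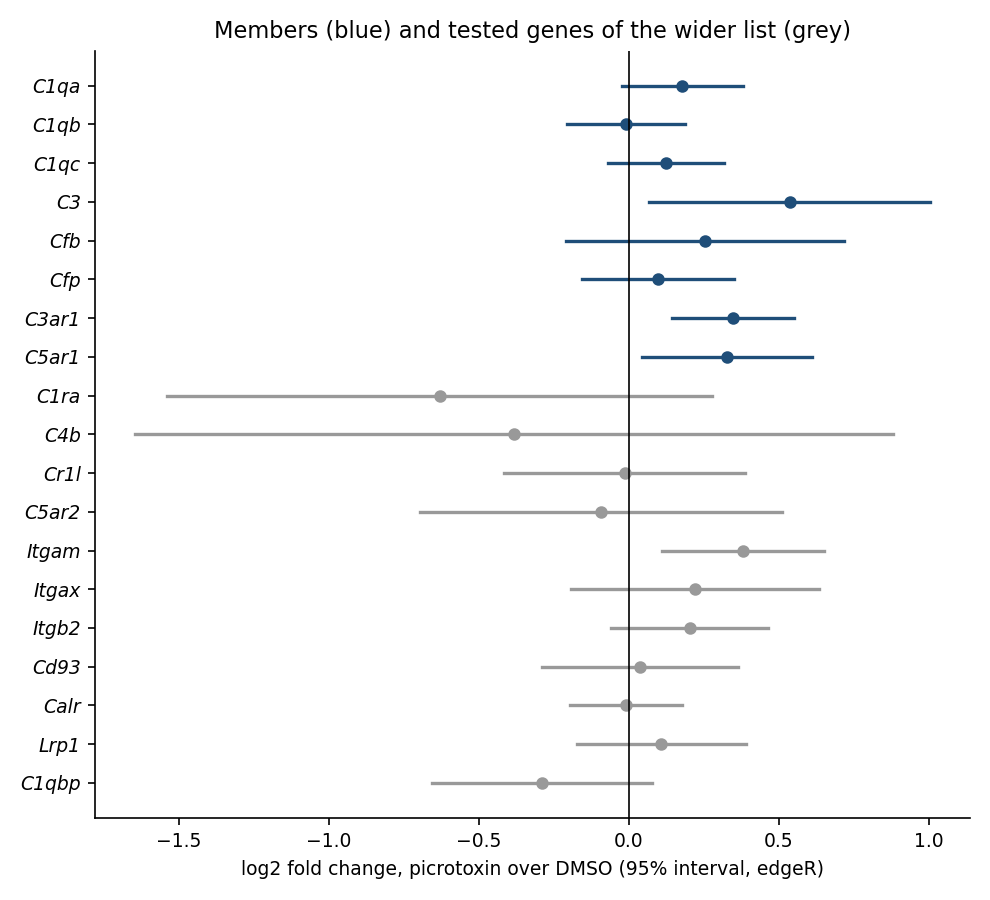
Log2 fold change of picrotoxin over DMSO (horizontal axis, edgeR) with its 95% interval for the 8 members in blue and for 11 tested genes of the wider complement list in grey, 6 libraries per group. Among the members, the intervals of C3, C3ar1 and C5ar1 lie above 0, and among the grey genes that of Itgam does.

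Library totals ran from 201697 to 309617 molecules, a molecule being a barcode counted once. A count of 0 in the smallest library therefore allows a share of up to 0.00149% (3 molecules, counting error only). Macrophage markers were present throughout, with 677 to 1131 molecules per library over 8 genes, and 8 of 8 were detected. B cell and T and NK cell markers reached at most 3 molecules, and Cd79a, Ms4a1 and Pax5 were listed at 0. Fibroblast and matrix markers (12 of 12 genes detected) held 18 to 820 molecules in DMSO and 8 to 63 in picrotoxin libraries. The highest were 820 in DMSO replicate 5, 219 in DMSO replicate 3 and 155 in DMSO replicate 6. Fits without DMSO replicates 3 and 5 keep replicate 6. In bulk libraries, fewer cells of a type and less RNA per cell cannot be told apart.

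C3ar1 (chromosome 6, 122847138 to 122856161, minus strand, protein coding, GRCm38) was measured at 115 normalised molecules in the lowest DMSO library, 128 in the median and 143 in the highest. The picrotoxin libraries held 149, 161 and 181 in the same order. Normalised molecules are counts divided by a size factor per library. The groups did not overlap, which was the case for 1 of 8 members and for 0.386% of all genes tested. The mean was 129.6 ± 10.6 with DMSO against 164 ± 14.3 with picrotoxin (SD, n = 6), and the log2 fold change was 0.35 (SE 0.10, 95% interval from 0.15 to 0.55). In edgeR its unadjusted p was 0.00138, the place 45 among all genes tested, and its adjusted p was 0.293. DESeq2 gave an unadjusted p of 0.00103 and an adjusted p of 0.503.

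The C3ar1 difference did not rest on a single library. When each of the 12 libraries was left out in turn, the log2 fold change stayed between 0.30 and 0.37. Over 23 alternatives the unadjusted p stayed between 0.0006 and 0.00632, and the adjusted p between 0.132 and 0.764. The labels give no batch, but replicates 1 and 2 differ from the rest in Cfb and C1qc, described further on. Means in replicates 1 and 2 were 128 with DMSO and 153 with picrotoxin, and in replicates 3 to 6 they were 130.2 and 169, so the difference had the same sign in both sets.

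C5ar1 (chromosome 7, 16246743 to 16259540, minus strand, protein coding) was scarcer, with 32 to 63 molecules counted per library. Normalised molecules were 32.8, 45.0 and 49.1 in the lowest, median and highest DMSO library and 45.7, 51.3 and 66.4 with picrotoxin. The groups overlapped, but 6 of 6 picrotoxin libraries were above the DMSO mean and 4 were above the highest DMSO library. The mean was 42.7 ± 6.51 with DMSO against 53.3 ± 7.75 with picrotoxin (SD, n = 6), and the log2 fold change was 0.33 (SE 0.14, 95% interval from 0.04 to 0.61). The unadjusted p in edgeR was 0.0251 and the adjusted p 0.557, and the unadjusted p in DESeq2 was 0.0558. The unadjusted p in edgeR was above 0.05 without DMSO replicate 2 (0.0536), without DMSO replicate 3 (0.0849), without picrotoxin replicate 1 (0.0675) and without picrotoxin replicate 6 (0.088). It was also above 0.05 with library totals as the scaling (0.063), in replicates 3 to 6 alone (0.0523) and without DMSO replicates 3 and 5 (0.0618), whereas the sign held in all 23 alternatives.

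**Figure D2:**
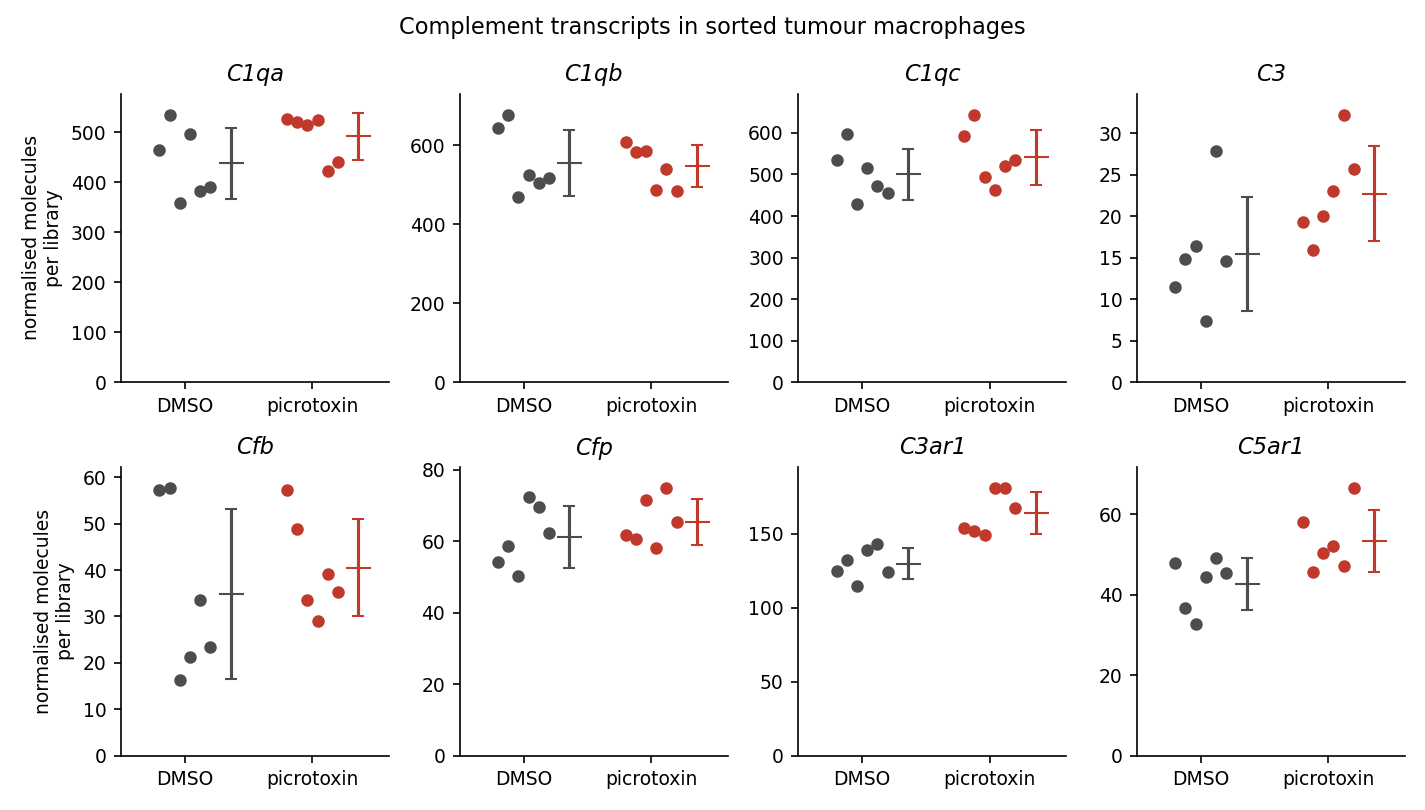
Normalised molecules per library (vertical axis, from 0) of the 8 members in DMSO (grey) and picrotoxin (red) libraries, points in order of replicate number, with the mean and SD (n = 6) beside them. The 6 picrotoxin libraries of C3ar1, between 149 and 181, sit above all DMSO libraries, whereas the groups overlap in the other 7 members.

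The balance of the 2 receptors was compared within libraries. The ratio of C5ar1 to C3ar1 within a library was 0.281, 0.333 and 0.386 in the lowest, median and highest DMSO library and 0.263, 0.322 and 0.399 with picrotoxin. The mean log2 ratio differed by -0.02 between groups (exact permutation test, two-sided, n = 6 per group, p = 0.89, adjusted over 4 ratios 0.89). A ratio within a library does not depend on how libraries are scaled. Log2 CPM are counts scaled to the library total times its TMM factor. Across the 12 libraries log2 CPM of the receptors correlated with Pearson's r = 0.68 (permutation p = 0.0142, adjusted over 4 pairs 0.0189) and Spearman's rho = 0.66 (permutation p = 0.0218, adjusted 0.0258). Without the 2 libraries farthest from the median of C3ar1 r was 0.64 (permutation p = 0.0429). Both receptors had higher means with picrotoxin, so these values include the difference between groups. With each gene centred on its group mean r was 0.33. Within groups r was 0.60 in DMSO (exact permutation p = 0.224, n = 6) and 0.03 in picrotoxin libraries (exact permutation p = 0.943, n = 6), and with 6 libraries these p-values do not show whether the relation holds. Without DMSO replicate 3 r was 0.52 (permutation p adjusted over 4 pairs 0.0975). In replicates 3 to 6 of both groups r was 0.73 (exact permutation p = 0.0287, n = 8), and replicates 1 and 2 were too few for a value.

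Other myeloid cells carry these receptors as well. Neutrophil markers held 6 to 10 molecules in DMSO and 4 to 13 in picrotoxin libraries over 8 genes, with S100a9, Retnlg and Ly6g listed at 0. Monocyte markers (6 of 6 genes detected) took 0.0961% to 0.146% of molecules in DMSO and 0.105% to 0.16% in picrotoxin libraries. Macrophage markers took 0.294% to 0.415% and 0.37% to 0.406%. Within these lists Chil3 (log2 fold change 1.22, unadjusted p 0.00576, adjusted p 0.394 in edgeR) and Mrc1 (0.48, unadjusted p 0.00983, adjusted p 0.428) were higher with picrotoxin at an unadjusted p under 0.05, and Vcan (-1.06, unadjusted p 0.0159, adjusted p 0.493) was lower. Epithelial markers (2 of 6 genes detected) held 8 to 14 molecules in DMSO and 8 to 21 in picrotoxin libraries. Over all libraries Cdh1 held 152 of these molecules and the other detected gene 2, and the rest of the list was at 0. The log2 fold change of Cdh1 was 0.70 (unadjusted p 0.00964, adjusted p 0.428 in edgeR). Dendritic cell markers held 3 to 13 molecules and endothelial markers 1 to 10. Their part in the receptor values was not tested.

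The promoter windows of both receptors are shown because both receptors had an unadjusted p under 0.05 in edgeR, though not after adjustment. RefSeq sequence of build GRCm38.p6 was matched for 6 of 8 members (C1qb, C1qc, C3, Cfp, C3ar1 and C5ar1, not C1qa or Cfb), as 300 bases from 250 before to 50 after the transcription start, read on the minus strand. Capitals mark matches to motifs searched on both strands, GGAAGT (the core of ETS factors, PU.1 of macrophages among them), TGCTGA (the core read by MAF factors), TGANTCA (the AP-1 site), the interferon-stimulated response element and the NF-κB site, none of which overlapped another here. The windows are chr6:122856108-122856407 for C3ar1 and chr7:16259289-16259588 for C5ar1.
C3ar1: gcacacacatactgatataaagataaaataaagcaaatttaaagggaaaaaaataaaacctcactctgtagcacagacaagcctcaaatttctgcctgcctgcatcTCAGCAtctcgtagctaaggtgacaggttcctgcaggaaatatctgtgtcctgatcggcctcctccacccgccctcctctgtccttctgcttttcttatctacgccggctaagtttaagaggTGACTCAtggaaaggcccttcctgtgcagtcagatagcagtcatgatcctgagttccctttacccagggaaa
C5ar1: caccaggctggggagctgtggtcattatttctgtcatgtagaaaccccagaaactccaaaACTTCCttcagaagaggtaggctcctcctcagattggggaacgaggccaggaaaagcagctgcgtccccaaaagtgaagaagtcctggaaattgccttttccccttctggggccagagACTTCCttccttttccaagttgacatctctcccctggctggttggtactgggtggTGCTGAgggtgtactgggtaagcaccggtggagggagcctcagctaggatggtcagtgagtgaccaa
The C3ar1 window held TGACTCA starting 22 bases before the start and the MAF core, as TCAGCA, starting 144 bases before it. The C5ar1 window held ACTTCC, the reverse complement of GGAAGT, starting 190 and 72 bases before the start, and TGCTGA starting 17 bases before it. These starts are those of RefSeq. The GENCODE position of C5ar1 reaches 16259540, past the RefSeq start, so its marked sites lie within the gene by that annotation. Of 32851 promoter windows, 7.81% held TGANTCA, 23.8% held GGAAGT and 19.5% held TGCTGA. Among the 6 member windows, 1 held TGANTCA, 3 held GGAAGT and 4 held TGCTGA. The interferon-stimulated response element and the NF-κB site were found in 0 of 6, against 3.44% and 0.411% of all windows.

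C3 (chromosome 17, 57203970 to 57228136, minus strand, protein coding), the substrate shared by all complement pathways, was counted at only 8 to 34 molecules per library. Normalised molecules were 7.42, 14.8 and 27.8 in the lowest, median and highest DMSO library and 15.9, 21.5 and 32.2 with picrotoxin. All 6 picrotoxin libraries were above the DMSO mean, but only 1 was above the highest DMSO library, which was replicate 5. The mean was 15.4 ± 6.86 with DMSO against 22.7 ± 5.73 with picrotoxin (SD, n = 6), and the log2 fold change was 0.54 (SE 0.23, 95% interval from 0.07 to 1.004). The unadjusted p in edgeR was 0.026 and the adjusted p 0.564, and DESeq2 gave an unadjusted p of 0.0578.

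Fibroblasts also transcribe C3, and DMSO replicate 5, the DMSO library with most C3 (34 molecules), was also the library with most matrix marker molecules (820). Their part in the C3 values was not tested. Without DMSO replicates 3 and 5 the log2 fold change of C3 was larger, at 0.88 (unadjusted p 0.000789 and adjusted p 0.577 in edgeR), and with a score of matrix markers in the model it was 0.97 (unadjusted p 0.000183, adjusted p 0.328). The unadjusted p in edgeR was above 0.05 without DMSO replicate 1 (0.0531), without DMSO replicate 4 (0.0936), without picrotoxin replicate 5 (0.0891) and without picrotoxin replicate 6 (0.0536). Means were 13.2 and 17.6 in replicates 1 and 2 and 16.6 and 25.2 in replicates 3 to 6, in DMSO and picrotoxin libraries respectively.

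Cfb (chromosome 17, 34856374 to 34862518, minus strand, protein coding), the protease of the alternative pathway, differed by replicate number in both groups. Normalised molecules were 16.4, 28.5 and 57.6 in the lowest, median and highest DMSO library and 29.1, 37.2 and 57.1 with picrotoxin. The 4 libraries numbered 1 and 2 held 48.8 to 57.6 normalised molecules in both groups, and the 8 libraries numbered 3 to 6 held 16.4 to 39.1, so these sets did not overlap. Of all genes tested, 1.16% had sets that did not overlap, 0.678% with replicates 1 and 2 higher, so Cfb was 1 of 65 such genes. C1qc was another, narrowly, at 535.83 to 643 normalised molecules in libraries numbered 1 and 2 and 428 to 535.76 in the others. C1qb, at 583.98 to 677 and 468 to 584.64, overlapped by a narrow margin. As the sets were noticed in these data, the gaps are given as a description.

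Between groups the log2 fold change of Cfb was 0.25 (SE 0.23, unadjusted p 0.275, adjusted p 0.858 in edgeR). Within replicates 1 and 2 the means were 57.4 with DMSO and 53.0 with picrotoxin, and within replicates 3 to 6 they were 23.7 and 34.3. In replicates 3 to 6 alone the log2 fold change was 0.53 (unadjusted p 0.0165, adjusted p 0.384 in edgeR), and the difference between the sets was not tested. Without DMSO replicates 3 and 5 it was 0.07, and without DMSO replicate 2 it was 0.45 (unadjusted p 0.0493). Cfb shares a segment of 2248 bases with Gm20547, an annotated gene that overlaps it on the same strand, so its count is uncertain.

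**Figure D3:**
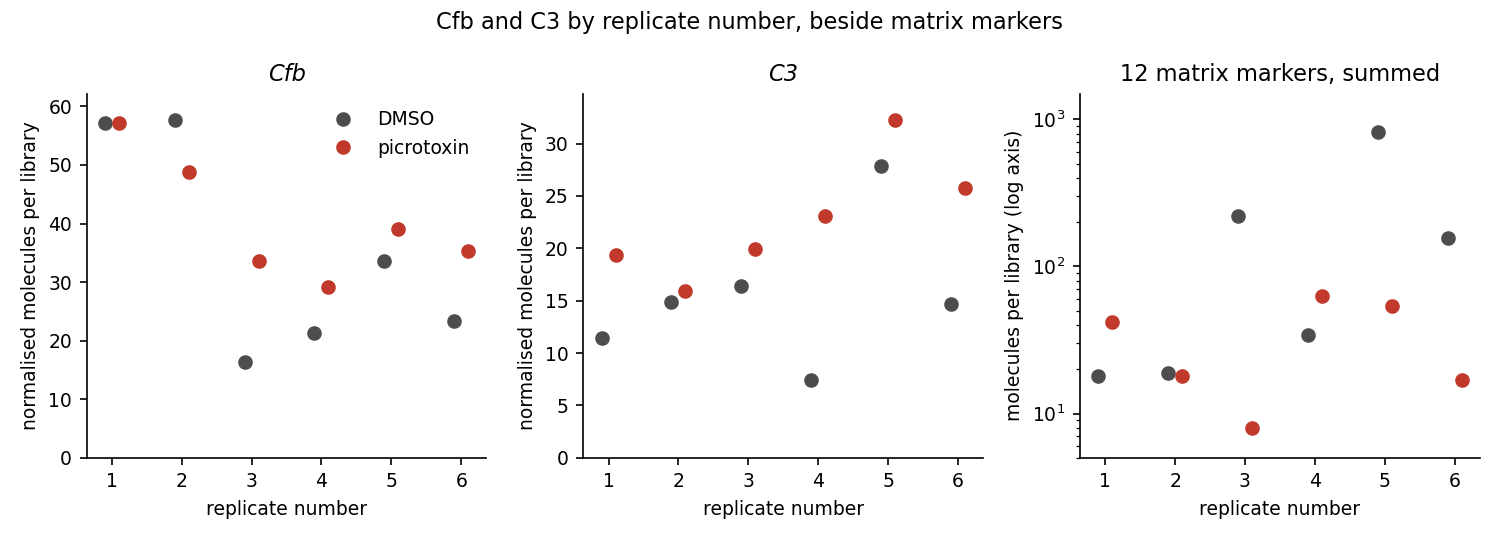
Normalised molecules of Cfb (left) and C3 (middle) and the summed molecules of 12 fibroblast and matrix markers (right, log axis) by replicate number in DMSO (grey) and picrotoxin (red) libraries, 1 point per library. Cfb lies between 48.8 and 57.6 in libraries numbered 1 and 2 of both groups and at or below 39.1 in the others, and DMSO replicate 5 has the most matrix marker molecules, 820.

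Cfp (chromosome X, 20925454 to 20931555, minus strand, protein coding), which encodes properdin, overlapped between groups. Normalised molecules were 50.2, 60.4 and 72.4 in the lowest, median and highest DMSO library and 58.2, 63.6 and 74.8 with picrotoxin. The log2 fold change was 0.10 (SE 0.12, 95% interval from -0.16 to 0.35, unadjusted p 0.437, adjusted p 0.92 in edgeR).

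The C1q chains were the most abundant members. Per kilobase of their longest protein-coding transcript, C1qb, C1qa and C1qc were at 2176, 1917 and 1856 CPM, places 36, 40 and 42 among 9452 tested genes with an annotated length. On the same scale Cfp was at 166, C3ar1 at 146, C5ar1 at 81.0, Cfb at 58.9 and C3 at 15.9. Priming from oligo-dT counts mostly 3′ ends, so division by length is an approximation. Together the chains took 0.533%, 0.633% and 0.781% of all molecules in the lowest, median and highest DMSO library and 0.613%, 0.653% and 0.734% with picrotoxin.

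C1qa (chromosome 4, 136895917 to 136898803, minus strand, protein coding) was at 359, 427 and 535 normalised molecules in the lowest, median and highest DMSO library and at 423, 518 and 527 with picrotoxin. Its log2 fold change was 0.18 (SE 0.10, 95% interval from -0.02 to 0.38, unadjusted p 0.0805, adjusted p 0.732 in edgeR), and the unadjusted p was under 0.05 in 6 of 23 alternatives. It was 0.066 without DMSO replicates 3 and 5 (unadjusted p 0.502 in edgeR) and 0.063 with the matrix score in the model (unadjusted p 0.507). C1qc (chromosome 4, 136889804 to 136893065, minus strand) was at 428, 493 and 598 in DMSO and at 463, 528 and 643 in picrotoxin libraries, a log2 fold change of 0.12 with an interval from -0.07 to 0.32 (unadjusted p 0.204, adjusted p 0.816 in edgeR). That of C1qc was 0.045 without DMSO replicates 3 and 5, 0.038 with the matrix score and from 0.065 to 0.185 leaving out each library. C1qb (chromosome 4, 136880129 to 136886187, minus strand) was at 468, 521 and 677 in DMSO and at 485, 562 and 609 in picrotoxin libraries, a log2 fold change of -0.01 with an interval from -0.20 to 0.19 (unadjusted p 0.925, adjusted p 0.995 in edgeR). The groups overlapped for all 3 chains, and the sign of C1qb was not fixed, being positive in 6 of 23 alternatives.

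The genes of the chains lie side by side within 18675 bases, in the order C1qb, C1qc, C1qa, with no annotated gene overlapping them. Their promoter windows are chr4:136886151-136886450 for C1qb and chr4:136892865-136893164 for C1qc, shown because these chains correlated across libraries, with the same motifs in capitals.
C1qb: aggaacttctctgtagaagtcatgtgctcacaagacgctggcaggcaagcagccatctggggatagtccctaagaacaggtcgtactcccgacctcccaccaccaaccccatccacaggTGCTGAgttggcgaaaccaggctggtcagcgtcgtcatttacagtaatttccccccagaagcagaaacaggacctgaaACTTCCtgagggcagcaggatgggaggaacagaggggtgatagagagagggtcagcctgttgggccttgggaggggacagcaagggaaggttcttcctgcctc
C1qc: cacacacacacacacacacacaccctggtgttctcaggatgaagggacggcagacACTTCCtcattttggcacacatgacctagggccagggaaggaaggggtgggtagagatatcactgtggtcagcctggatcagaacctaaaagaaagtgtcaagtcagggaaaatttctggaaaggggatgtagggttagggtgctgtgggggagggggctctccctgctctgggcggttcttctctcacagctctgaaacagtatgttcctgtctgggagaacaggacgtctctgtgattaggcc
Both windows held ACTTCC, the reverse complement of GGAAGT, starting 53 bases before the RefSeq start in C1qb and 195 in C1qc. Only C1qb held TGCTGA, starting 131 bases before it. The GENCODE position of C1qc reaches 136893065, past the RefSeq start, and its marked site lies before both.

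The chains varied together across libraries, though C1qb and C1qc also differed between replicates 1 and 2 and the rest. Over 12 libraries the correlation of log2 CPM was r = 0.75 for C1qb and C1qc (permutation p = 0.00543, adjusted over 4 pairs 0.0189, rho = 0.74, permutation p = 0.00754, adjusted 0.0241). It was r = 0.71 for C1qa and C1qc (permutation p = 0.0107, adjusted 0.0189, rho = 0.71, permutation p = 0.0121, adjusted 0.0241) and r = 0.65 for C1qa and C1qb (permutation p = 0.0242, adjusted 0.0242, rho = 0.65, permutation p = 0.0258, adjusted 0.0258). Without the 2 libraries farthest from the median of the first gene r was 0.76 for C1qb and C1qc (permutation p = 0.0104), 0.52 for C1qa and C1qc (permutation p = 0.126) and 0.46 for C1qa and C1qb (permutation p = 0.183). For C1qa those libraries were DMSO replicates 3 and 5, its lowest, and leaving them out also narrows its range. They held 219 and 820 molecules of matrix markers, whose part in the correlations was not tested. Without DMSO replicate 3 alone the adjusted permutation p was 0.0889 for C1qb and C1qc and 0.0975 for the other pairs of chains.

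Within DMSO libraries the chains were tightly related, with r = 0.94 for C1qb and C1qc (exact permutation p = 0.00278, n = 6), 0.96 for C1qa and C1qc (exact p = 0.00972) and 0.83 for C1qa and C1qb (exact p = 0.0389). Within picrotoxin libraries r was 0.62, 0.19 and 0.45 (exact permutation p = 0.203, 0.729 and 0.369, n = 6). The difference between the groups' correlations was not tested. In DMSO libraries C1qb was at 643 to 677 normalised molecules in replicates 1 and 2 and at 468 to 525 in replicates 3 to 6. C1qc was at 536 to 598 and 428 to 515, and C1qa at 464 to 535 and 359 to 497, which overlap. The part of this difference between sets in the correlations was not tested. In replicates 3 to 6 of both groups r was 0.49, 0.52 and 0.51 (exact permutation p = 0.219, 0.187 and 0.199, n = 8), too few libraries for these p-values to show whether the relation holds without replicates 1 and 2.

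No ratio between the chains passed the test between groups. C1qa to C1qb was 0.722, 0.763 and 0.947 in the lowest, median and highest DMSO library and 0.785, 0.886 and 1.076 with picrotoxin, where 5 of 6 libraries were above the DMSO mean. The mean log2 ratio was higher by 0.19 with picrotoxin (exact permutation test, two-sided, n = 6 per group, p = 0.0519, adjusted over 4 ratios 0.208). The smallest p that this design can give is 0.00216. Without DMSO replicate 4, whose ratio of 0.947 stood apart from the other DMSO libraries at 0.722 to 0.79, the difference was 0.24 (exact permutation p = 0.00649, adjusted 0.026). The highest picrotoxin ratio, 1.076, was also in replicate 4, against 0.785 to 0.91 in the other picrotoxin libraries. Leaving out each library in turn, the difference ran from 0.14 to 0.24. In replicates 3 to 6 alone it was 0.18 (exact permutation p = 0.286, adjusted 0.743). C1qc to C1qb was higher by 0.12 (exact permutation p = 0.106, adjusted 0.212) and C1qa to C1qc by 0.07 (exact permutation p = 0.496, adjusted 0.661).

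**Figure D4:**
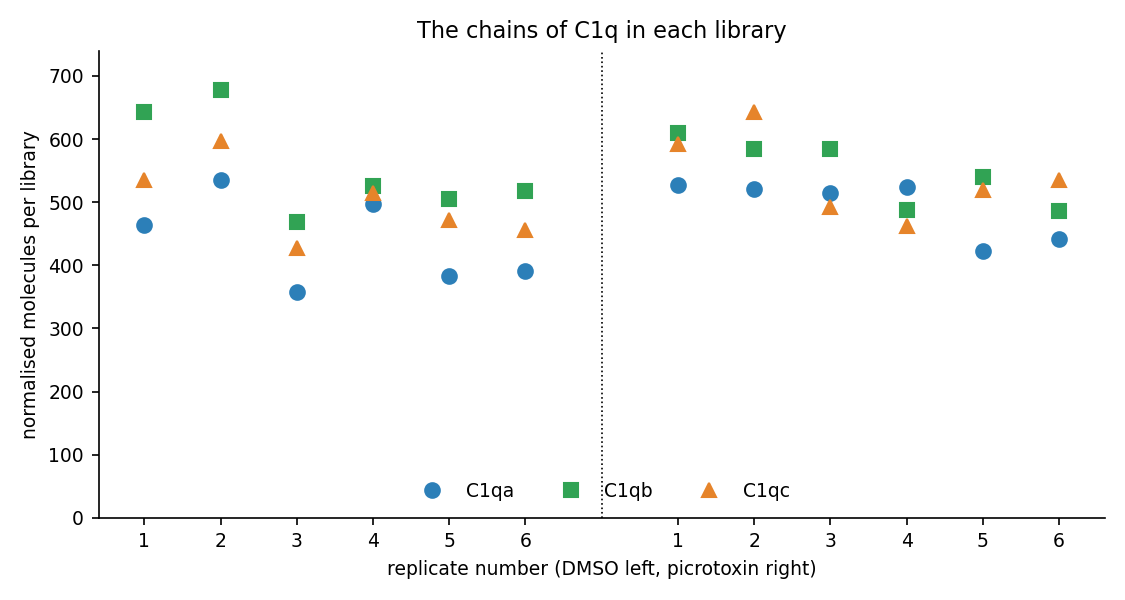
Normalised molecules (vertical axis, from 0) of C1qa, C1qb and C1qc in each library by replicate number, DMSO on the left and picrotoxin on the right. The chains move together in DMSO libraries, with r between 0.83 and 0.96, and r lies between 0.19 and 0.62 in picrotoxin libraries.

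Genes whose levels followed the members most closely were read over 3733 genes with a mean of at least 10 normalised molecules, as Pearson's r of log2 CPM over the 12 libraries, which share depth and scaling with the members. For the summed C1q chains these were Cd72 (r = 0.95), a lectin-like inhibitory receptor, Fcer1g (r = 0.93), the signalling chain of activating Fc receptors, Ctss (r = 0.93), the lysosomal protease cathepsin S, Plbd1 (r = 0.91) and Pld4 (r = 0.91), and 99% of genes had an r below 0.82. For C3ar1 they were Wnk1 (r = 0.88), a kinase of ion transport, Smg1 (r = 0.85), a kinase of nonsense-mediated decay, and Zcchc6 (r = 0.84), an RNA uridyltransferase. For C5ar1 they were Rragc (r = 0.88), a GTPase of mTORC1 signalling, Lamp1 (r = 0.86), a lysosomal membrane protein, and Rassf4 (r = 0.85). For C3 they were AI413582 (r = 0.87), Eif1b (r = 0.84) and Dars (r = 0.79), with means of 11.3, 12.4 and 15.5 normalised molecules. The r below which 99% of genes lay was 0.75 for C3ar1, 0.70 for C5ar1 and 0.62 for C3. As the groups of C3ar1 did not overlap, its r over all libraries also includes the difference between groups. The same holds for C5ar1 and C3, whose means were higher with picrotoxin. The summed C1q chains were at 1643 to 1810 normalised molecules in libraries numbered 1 and 2 and at 1255 to 1593 in the others. The part of this difference in r was not tested.

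A wider list of 46 other complement genes placed the members in the pathway. Of these, 22 were listed at 0 in all libraries and 13 were tested, with a median log2 fold change of -0.01. In edgeR 0 of the 13 had an adjusted p under 0.05, against 0.0522% of all genes tested. An unadjusted p under 0.05 was found for 2 of the 13, against 7.72% of all genes tested. DESeq2 gave an unadjusted p under 0.05 for 1 of them, against 3.82% of all genes. Lectin and terminal pathway genes had few molecules. All 9 genes of the lectin pathway and all 7 of the terminal pathway stayed below the filter, Masp1, a protease of the lectin pathway, reaching 6 molecules in all and Hc, which encodes C5, 2 molecules.

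Genes listed as receptors, Calr among them, were the best represented part of that list, with 8 of 10 tested. Of these, 5 had a log2 fold change above 0 and 3 below. Itgam (chromosome 7, 128062640 to 128118491, plus strand), the alpha chain of complement receptor 3 and one of the sort markers, had a mean of 137 ± 39.0 with DMSO against 178 ± 13.95 with picrotoxin (SD, n = 6) and a log2 fold change of 0.38 (SE 0.13, unadjusted p 0.00684, adjusted p 0.408 in edgeR). It was 0.17 without DMSO replicates 3 and 5 (unadjusted p 0.139) and 0.21 with the matrix score in the model (unadjusted p 0.0969). Itgam shares a segment of 3453 bases with Gm49368, so its count is uncertain. Its partner Itgb2 had a log2 fold change of 0.20 (unadjusted p 0.123, adjusted p 0.756 in edgeR) and Calr, which encodes calreticulin, one of -0.01 (unadjusted p 0.912, adjusted p 0.994).

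Among classical proteases and regulators, values were low. C1ra, a protease of the C1 complex, was counted at 1 to 9 molecules per library and had a log2 fold change of -0.63 (unadjusted p 0.168, adjusted p 0.796 in edgeR), and it shares segments with 2 other genes. That value was -1.001 without picrotoxin replicate 1 (unadjusted p 0.0498), -0.40 without DMSO replicate 5 and -0.33 with the matrix score. Cr1l, a membrane regulator of C3 convertases, had means of 18.6 ± 2.83 and 18.5 ± 4.78 normalised molecules (SD, n = 6) in DMSO and picrotoxin libraries, and shares a segment with 1 other. Serping1, the inhibitor of C1, passed an unadjusted p of 0.05, but 16 of its 17 molecules were counted in DMSO replicate 5, 1 in DMSO replicate 1 and 0 in the picrotoxin libraries. The library with 16 molecules of Serping1 was the one with 820 molecules of matrix markers. Of the 2 genes with an unadjusted p under 0.05, only Itgam was tested without DMSO replicates 3 and 5 (unadjusted p 0.139 in edgeR). Serping1 was left with 1 molecule there and fell below the filter.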

How the data were processed

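RNA of 100 sorted macrophages per library was counted in 6 DMSO and 6 picrotoxin libraries. The authors deposited whole-number counts of molecular barcodes per gene symbol, from cDNA of heat-fragmented RNA primed with oligo-dT. Per the labels and the study, reads were mapped to mm10 with STAR and refFlat genes. Use of strand and handling of multiply mapped reads are not given in the sources used here. All 12 columns matched sample titles.

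Groups were compared with the quasi-likelihood test of edgeR 4.0.16 (TMM, Benjamini-Hochberg over 9580 genes with a mean above 1 normalised molecule) and with DESeq2 1.42.0, whose size factors gave normalised molecules. Standard errors and 95% intervals were derived from the F statistic. Ratios (0.5 added to each count) were compared by exact permutation, and correlations by 100000 permutations, or all permutations below 10 libraries. The fits across all genes in edgeR, DESeq2 and limma-voom were tested on simulated data. The 8 members, the wider list, the marker lists and the tests were chosen with earlier results of these data known. Members were always named. Of the wider list, the most abundant gene and the one with the smallest p of each role were named, with any with an unadjusted p under 0.05, and Itgb2 after its values were seen. Some genes that this rule or the marker lists hold are not reported here by name. Gene positions are those of GENCODE M21 on GRCm38, whereas promoter windows follow RefSeq starts. Segments of at least 100 bases at 95% identity in other genes were found with BLAST 2.17.0. Pairs of libraries within a group differed by more than sampling noise, with chi-square per degree of freedom from 1.23 to 3.15 over 30 pairs. Same-numbered libraries were not taken as pairs. Alternatives covered scaling, filters, tools, the replicate block, sets of libraries, the matrix score and leaving out each library.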

Additional observations from a re-analysis of the deposited data

Results flagged for a closer look

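Among 49 groups of 6 values tested for a library far from the other 5, 3 held one, where chance flags about 1 in 20, or 2.45. Serping1 was at 13.1 normalised molecules in DMSO replicate 5, against 0 to 1.04. Itgam was at 152 in picrotoxin replicate 1, against 177 to 191. The ratio of C1qa to C1qb was 0.947 in DMSO replicate 4, against 0.722 to 0.79. Their causes were not tested.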

How the results depend on the processing

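With 8 to 34 molecules of C3 and 32 to 63 of C5ar1 per library, depth limits what can be seen of them. In edgeR and its alternatives 0 of 8 members had an adjusted p under 0.05, also in the 12 fits that each left out 1 library. By the rule of the study 1 member was called. It was 3 with edgeR, 2 without DMSO replicates 3 and 5, 2 with the matrix score, and from 1 to 3 leaving out each library (2 without DMSO replicate 1 or 2 or picrotoxin replicate 5, 3 without DMSO replicate 5 or picrotoxin replicate 2). Of the wider list 2 genes had an unadjusted p under 0.05 in edgeR, against 7.72% of all genes tested. The count was 1 with a filter at 10 (which tests fewer genes), DESeq2 or limma-voom, and 0 with the matrix score. It was 0 without DMSO replicates 3 and 5 and 1 without DMSO replicate 5, but there Serping1 fell below the filter and was not tested. Leaving out each library gave 1 to 3.

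Signs near 0 turned. The log2 fold change of C1qb was 0.012 in limma-voom and 0.075 in replicates 3 to 6 alone, and from -0.069 to 0.059 leaving out each library. That of Calr was 0.0070 and 0.066 in the same fits and from -0.056 to 0.042. That of Cr1l was 0.0038 with the replicate block, 0.0076 without DMSO replicates 3 and 5, 0.072 with the matrix score and from -0.097 to 0.090. The log2 ratio of C5ar1 to C3ar1 ran from -0.075 to 0.045 and that of C1qa to C1qb from 0.14 to 0.24, past the threshold only without DMSO replicate 4.

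In replicates 3 to 6 alone no correlation passed (r = 0.51 for C1qa and C1qb, 0.52 for C1qa and C1qc, 0.49 for C1qb and C1qc and 0.73 for the receptors, adjusted permutation p = 0.115 to 0.219), nor without DMSO replicates 3 and 5 (0.46, 0.52, 0.64 and 0.52, adjusted permutation p = 0.167 to 0.181). The receptors gave 0.33 with each gene centred on its group mean. Leaving out each library gave 0.54 to 0.80, 0.60 to 0.85, 0.68 to 0.82 and 0.52 to 0.76, and none passed without DMSO replicate 3. C1qa and C1qb also failed without DMSO replicate 2. The causes were not tested.

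Same-numbered libraries deviated together weakly, with correlations from -0.00081 to 0.0931, 0 of 6 above 0.1, and 3 of 12 libraries correlated best with their own number. With the replicate block 0 members had an adjusted p under 0.05, C3ar1 had one of 0.141, and the rule of the study called 1. Sign-flips within numbers gave C1qa to C1qb an exact p of 0.0312 (adjusted 0.125). Over all genes tested, 5 had an adjusted p under 0.05 in edgeR, 14 with library totals, 81 with every gene kept, 2 in DESeq2, 3 in limma-voom, 43 with the replicate block, 27 with a term for replicates 1 and 2, 48 in replicates 3 to 6 alone, 1 without DMSO replicates 3 and 5, 0 with the matrix score in edgeR (546 at an unadjusted p under 0.05) and 0 to 25 leaving out each library.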
